A study of Mus musculus with 18 samples.

Results

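The genes described here are 10 enzymes with which the liver breaks down amino acids and disposes of their nitrogen: Cps1, Otc, Ass1, Asl and Arg1 of the urea cycle, Gls2, Gpt and Got1, which release or pass on amino groups, and Tat and Sds, which degrade single amino acids. They were found by gene name among the non-control probes of an Agilent mouse array. All 10 genes were on the array, with 12 of its 39429 non-control probes (Otc and Ass1 had 2 each). The RNA came from livers of male C57BL/6J mice aged 13 weeks, which had eaten a high-fat diet for 5 weeks. In the LIN group (8 mice) the fat was linseed oil, of whose fatty acids 66.7% were polyunsaturated, with 49.7% alpha-linolenic acid, and 9.7% saturated. In the PALM group (10 mice) it was palm oil, with 8.8% polyunsaturated and 55.6% saturated fatty acids. Protein supplied the same 16.7% of dietary energy in both groups, with 51.1% from fat and 32.1% from carbohydrate, and no group on a low-fat diet was analysed here. Each mouse had 1 array. The labels do not say whether the mice were fasted before the livers were taken.

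Amino acids that are used as fuel lose their amino groups, and in the liver the urea cycle turns the freed ammonia into urea. Hepatocytes around the portal vein hold most of the cycle's enzymes, and fasting, glucocorticoids, glucagon and dietary protein raise many of these genes. PPARalpha is a nuclear receptor that is activated by fatty acids and switches on fat oxidation, and its activation is known to lower several of the 10 genes in mouse liver. The question asked of the data was whether these genes differed between livers of mice fed the n-3 rich oil and livers of mice fed the saturated oil.

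Every one of the 12 probes has 60 bases. The 4 probes below are shown because they measure the entry and an early step of the urea cycle (Cps1 and Otc), its last step (Arg1), and the gene found in 3 of the 4 most closely correlated pairs (Sds). Positions are in build mm9, as the array files give them with the gene; the files do not say which exon a probe lies in.
Cps1: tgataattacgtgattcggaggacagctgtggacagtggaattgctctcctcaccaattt
Otc: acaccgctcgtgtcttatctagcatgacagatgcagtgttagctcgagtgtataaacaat
Arg1: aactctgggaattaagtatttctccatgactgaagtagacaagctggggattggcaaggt
Sds: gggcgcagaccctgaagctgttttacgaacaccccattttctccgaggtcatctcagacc
The Cps1 probe lies at chr1:67276029-67276088 on the plus strand, the Arg1 probe at chr10:24636194-24636253 on the minus strand and the Sds probe at chr5:120933105-120933164 on the plus strand. The Otc probe spans chrX:9853843-9877490 on the plus strand, so that its 60 bases are joined over 23648 bases of the genome; it was printed in 10 spots on each array. The second Otc probe, in 1 spot, lies at chrX:9897267-9897326. The Ass1 probes lie next to each other at chr2:31376068-31376127 and chr2:31375998-31376057, and the first of them is also listed for 1 other RefSeq accession. The probes of Asl (chr5:130487964-130488549, minus strand) and Gpt (chr15:76529767-76529897) also cover more genome than their length, 586 and 131 bases. Those of Gls2 (chr10:127646830-127646889), Got1 (chr19:43574278-43574337, minus strand) and Tat (chr8:112523207-112523266) each lie in an unbroken stretch.

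A level is given here as log2 of the array software's processed signal over the 75th percentile of that signal on the same array. Levels of different probes depend on the probe and are not set against each other. The 18 arrays had 17258 to 22445 probes well above background, and the percentile was 117 to 204 intensity units. All 12 probes were well above background on 18 of 18 arrays and none had a saturated spot. The arrays lay on 5 slides, each with both diets. The software marked 238 to 1703 spots per array as uneven or as outliers, with 238 to 424 per array on slides 1 and 2 and 556 to 1703 on slides 3 to 5. The marks touched these genes: the number of arrays with a marked spot ran from 1 for the first Otc probe to 10 for the second, with 8 each for Asl and Gls2, 7 for Got1 and 5 for Tat. With marked spots left out, Asl, Gls2, Got1 and Tat had too few values for the test, which asked for 6 per group. Values are therefore given with marked spots kept, over all 18 livers, and beside them the difference with marked spots left out where it could be tested. The 10 hepatocyte markers that were looked for were all detected, meaning well above background on at least 8 arrays, as the tissue label says.

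None of the 10 genes passed the test for a difference between the diets. With marked spots left out, 6 genes were tested, and 0 passed limma's test at a Benjamini-Hochberg adjusted p of 0.05 over all genes; 0 had an unadjusted p under 0.05. Over all genes in that comparison 0.759% passed (121 of 15951). With marked spots kept, 10 were tested and 0 passed, and 0 had an unadjusted p under 0.05, against 0.901% of all genes (149 of 16544). The authors' deposited table of log2 values, tested in the same way, gave 0 of 10, against 0.682% of its 14807 genes. The median difference of the members, LIN minus PALM, was 0.055 on the log2 scale with marked spots left out and 0.040 with them kept, against medians over all genes of -0.0038 and -0.0017. With marked spots kept, 6 of 10 differences were above 0 and 4 below. The 95% confidence intervals of the 10 genes together reached from 0.634-fold to 1.584-fold, and the values inside a gene's own interval are those compatible with these arrays. In such bulk RNA, fewer hepatocytes and less RNA per hepatocyte cannot be told apart.

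**Figure D1:**
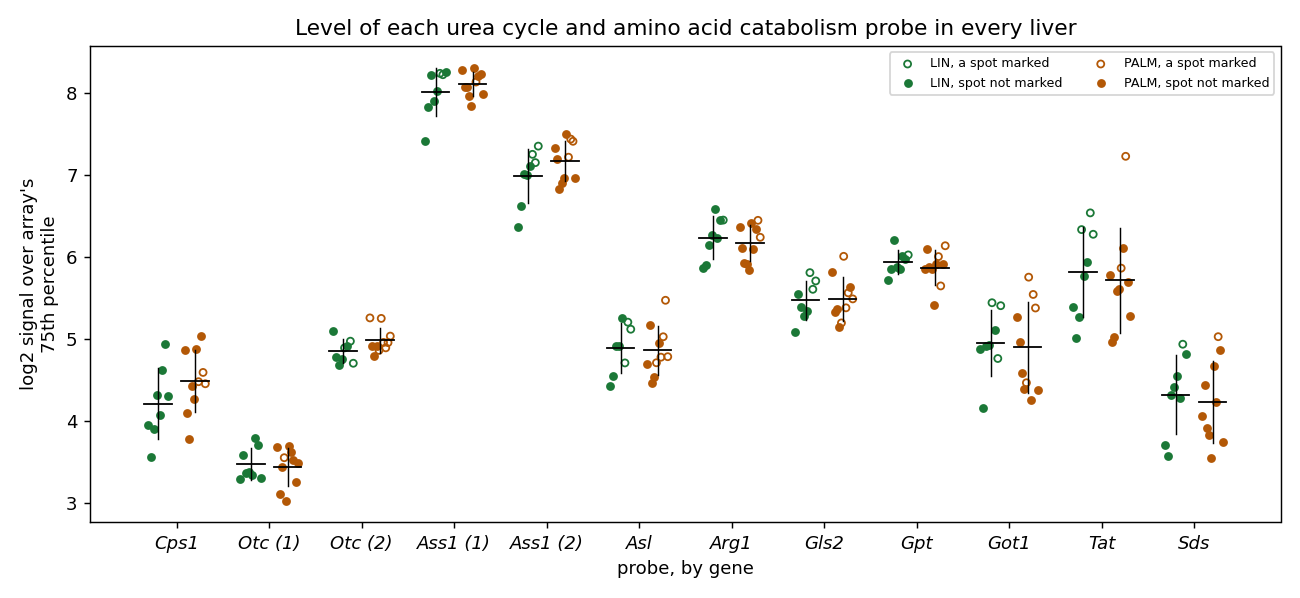
Each point is the level of 1 probe in 1 liver (log2 signal over the array's 75th percentile), with LIN livers left of PALM livers for each probe; open points are livers in which a spot of the probe was marked, horizontal bars are means and vertical bars 1 SD (n = 8 LIN, n = 10 PALM). The LIN and PALM points overlap for all 12 probes, and the highest Tat point, 7.23, is a PALM liver with a marked spot.

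Cps1 makes carbamoyl phosphate from ammonia in the mitochondrion and sets the pace of the urea cycle. Its level was 3.57, 4.19 and 4.94 (lowest, median and highest) in LIN livers, against 3.78, 4.47 and 5.04 in PALM livers. The groups overlapped over most of their range, with the LIN livers a little lower at each of these points. Cps1 had the largest difference of the 10 genes, -0.28 ± 0.18 (SE; 0.825-fold, 95% confidence interval 0.634 to 1.074), and limma's adjusted p was 0.637. With marked spots left out, which removed 3 PALM livers, it was -0.27 ± 0.22 with an adjusted p of 0.739. Among the 5 slides the LIN mean was below the PALM mean on 3 and above it on 2, with differences from -0.72 to 0.02.

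Otc joins carbamoyl phosphate to ornithine, the next step, also in the mitochondrion. Its probes did not point the same way. The first probe, the one printed above, gave levels of 3.30, 3.38 and 3.80 in LIN livers, against 3.03, 3.50 and 3.70 in PALM livers, and a difference of 0.03 ± 0.10 (SE; adjusted p = 0.951 by limma with marked spots left out). The second gave 4.68, 4.84 and 5.10 in LIN livers, against 4.79, 4.93 and 5.26 in PALM livers. Its difference was -0.13 ± 0.077 (SE; 0.913-fold, 0.816 to 1.020, adjusted p = 0.587 by limma), with marked spots kept on 3 LIN and 7 PALM arrays. Both pairs of groups overlapped, and neither probe passed the test.

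Ass1 and Asl build and split argininosuccinate in the cytosol. The first Ass1 probe had levels of 7.41, 8.13 and 8.26 in LIN livers, against 7.85, 8.11 and 8.31 in PALM livers. The LIN livers were spread more widely at the low end (SD 0.29, against 0.15 in PALM livers), and the medians lay within 0.02 of each other. The difference was -0.098 ± 0.11 (SE) with marked spots kept and -0.17 ± 0.12 with them left out, with adjusted p-values of 0.813 and 0.695 by limma. The second Ass1 probe differed by -0.19 ± 0.13 (adjusted p = 0.644 by limma), in the same direction. Asl had levels of 4.43, 4.91 and 5.26 in LIN livers, against 4.47, 4.78 and 5.47 in PALM livers, and a difference of 0.03 ± 0.14 (adjusted p = 0.971 by limma). Its interval, 0.833-fold to 1.247-fold, leaves room on both sides.

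Arg1 releases urea from arginine and returns ornithine to the cycle. Its level was 5.87, 6.25 and 6.58 in LIN livers, against 5.84, 6.17 and 6.45 in PALM livers. The ranges nearly coincided. The difference was 0.07 ± 0.11 (SE; 1.046-fold, 0.890 to 1.231, adjusted p = 0.893 by limma) with marked spots kept and 0.078 ± 0.12 with them left out.

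Gls2 and Gpt, which feed nitrogen to the cycle, had differences near 0. Gls2, the liver glutaminase, frees ammonia from glutamine; its level was 5.08, 5.47 and 5.81 in LIN livers, against 5.15, 5.44 and 6.01 in PALM livers. Its difference was -0.022 ± 0.12 (SE; 0.985-fold, 0.829 to 1.171, adjusted p = 0.973 by limma). Gpt, alanine aminotransferase, moves the amino group of alanine to 2-oxoglutarate. Its level was 5.72, 5.93 and 6.20 in LIN livers, against 5.41, 5.89 and 6.14 in PALM livers. The difference was 0.07 ± 0.09 (SE; 1.050-fold, 0.921 to 1.197, adjusted p = 0.849 by limma), and 0.084 ± 0.10 with marked spots left out.

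Got1, the cytosolic aspartate aminotransferase, was more variable. Its level was 4.16, 4.92 and 5.44 in LIN livers, against 4.26, 4.77 and 5.75 in PALM livers. The ranges overlapped throughout, and the difference of 0.05 ± 0.22 (SE; 1.037-fold, 0.754 to 1.426, adjusted p = 0.965 by limma) was small beside the SD of 0.40 in LIN livers and 0.55 in PALM livers.

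Tat and Sds degrade single amino acids and are known as genes that follow fasting hormones closely. Tat, tyrosine aminotransferase, is a classic glucocorticoid target. Its level was 5.02, 5.85 and 6.54 in LIN livers, against 4.96, 5.65 and 7.23 in PALM livers. The highest value came from PALM replicate 8, and the next PALM liver was at 6.11. The difference was 0.10 ± 0.27 (SE; 1.073-fold, 0.727 to 1.584, adjusted p = 0.939 by limma), the widest interval of the 10 genes. The 5 livers with a marked Tat spot, 3 LIN and 2 PALM, held the 4 highest Tat levels, so leaving marked spots out also removed the top of the range. Sds, serine dehydratase, turns serine into pyruvate and ammonia. Its level was 3.57, 4.37 and 4.94 in LIN livers, against 3.55, 4.15 and 5.03 in PALM livers. Sds differed by 0.089 ± 0.22 (SE; 1.064-fold, 0.773 to 1.465, adjusted p = 0.934 by limma), and by 0.09 ± 0.21 with marked spots left out.

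**Figure D2:**
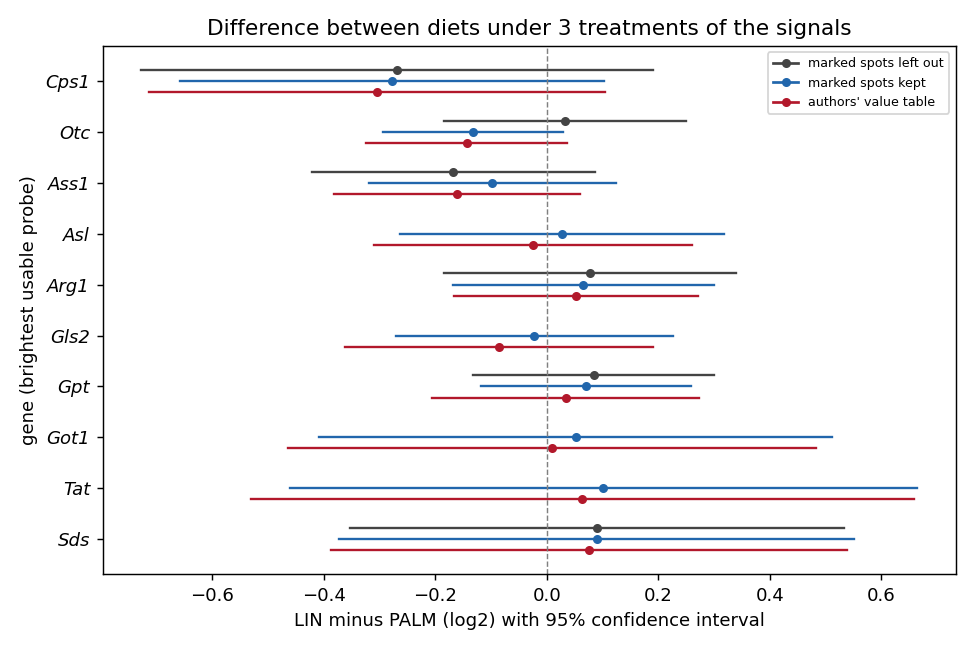
Points are the difference between diets for each gene, LIN minus PALM on the log2 scale, and lines its 95% confidence interval from limma, with marked spots left out (6 genes), with marked spots kept (10 genes) and from the authors' value table (10 genes). Every interval includes 0; the widest are those of Tat, and Otc changes side because a different probe is usable when marked spots are left out.

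The slides gave no common direction for any probe. For each of the 12 probes the LIN mean was above the PALM mean on some slides and below it on others, and the slide differences ran from -0.76 (second Ass1 probe) to 0.79 (Tat). Within slide 1, however, the LIN mean was lower for every probe but the first of Otc (-0.72 for Cps1, -0.61 for Sds, -0.59 for Got1). Within slide 2 it was higher for every probe but those of Otc (0.0071 for Cps1, 0.50 for Sds, 0.43 for Got1). With slide as a fixed block and marked spots kept, 0 of 10 members passed limma's test and 0 had an unadjusted p under 0.05, against 1.12% of all genes passing. A slide held 1 or 2 LIN arrays and 2 PALM arrays, so its own difference rests on very few livers.

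The 10 genes differed in how widely they varied among livers of 1 diet. With marked spots kept, the SD within a diet was 0.60 for Tat, 0.49 for Sds, 0.49 for Got1 and 0.40 for Cps1, against 0.15 for Otc (second probe) and 0.19 for Gpt. The median over 16544 genes was 0.24, and over the brightest decile of them 0.18. Of all genes, 93.2% had a smaller SD than Tat, 87.2% a smaller one than Sds, 87.1% a smaller one than Got1 and 79.7% a smaller one than Cps1. The first rank of Tat did not hold with marked spots left out. Its SD was then 0.37 in LIN livers and 0.39 in PALM livers, below those of Sds (0.45 and 0.44) and Cps1 (0.43 and 0.47). Asl (0.30), Gls2 (0.26), Arg1 (0.24) and Ass1 (0.22) lay near or just above the median. Otc, by its second probe, and Gpt thus allowed narrower intervals for the effect of diet than Tat or Sds did. That Otc probe was marked on 10 arrays, and the first Otc probe had an SD of 0.20 in LIN livers and 0.23 in PALM livers. Among the brightest decile, 53% of genes had a smaller SD than Gpt.

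The members varied together from liver to liver once diet and slide means were removed. After diet and slide means were removed from values with marked spots kept, 42 of the 45 pairs of members had a positive Pearson r over the 18 livers, the median r was 0.47, and 20 pairs had r of 0.5 or more. All 10 values of a liver come from 1 array, and removing 6 means leaves 12 degrees of freedom, which the permutation p-values (100000 resamples, two-sided, adjusted over the 45 pairs) do not allow for. The members were chosen with earlier results of these data known, so these p-values are given as a description. A diet difference that changes between slides is not removed. On slide 1 the members' mean was then -0.17 and -0.24 in LIN livers, against 0.31 and 0.10 in PALM livers. On slide 2 it was 0.06 and 0.16, against -0.15 and -0.07. On slides 3 to 5 the PALM livers of a slide had both signs. Without slide 1, 18 pairs had r of 0.5 or more (median r 0.47), and without slide 2, 21 pairs (0.48). The lowest median r with 1 slide left out was 0.33, without slide 3 (18 pairs). Slides 1 and 2 were not left out together. How much of the correlation came from diet differences that change between slides was not tested. Sds stood in 3 of the 4 closest pairs: with Asl (r = 0.86, rho = 0.80, adjusted permutation p = 0.00075 for r), with Got1 (r = 0.83, rho = 0.84, adjusted permutation p = 0.00075) and with Arg1 (r = 0.80, rho = 0.74, adjusted permutation p = 9e-04). The fourth pair was Ass1 with Gls2 (r = 0.82, rho = 0.79, adjusted permutation p = 0.00075). Without the 2 livers farthest from the median of Asl, Got1, Arg1 or Ass1, r was 0.83 for Asl and Sds, 0.76 for Got1 and Sds, 0.83 for Arg1 and Sds and 0.72 for Ass1 and Gls2.

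**Figure D3:**
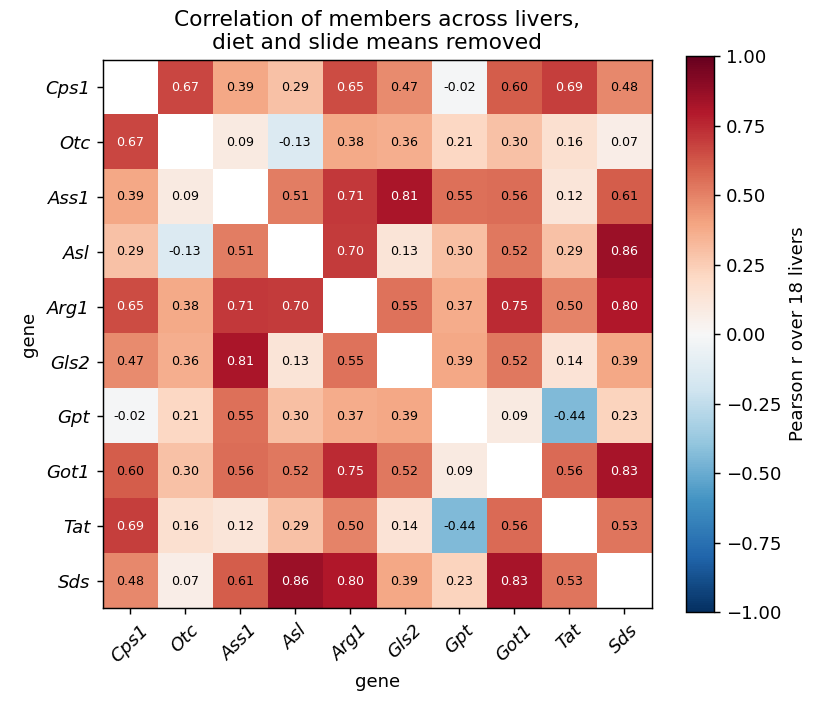
Each cell is Pearson's r between the levels of 2 genes over 18 livers after diet and slide means were removed (red positive, blue negative). Most cells are positive, Asl with Sds is highest at 0.86, and Gpt with Tat is lowest at -0.44.

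Not all pairs took part. Otc, by its second probe, had a median r of 0.21 with the other members and Gpt one of 0.23, against 0.65 for Arg1. The pair of Gpt and Tat had the lowest r (r = -0.44, rho = -0.45, adjusted permutation p = 0.125 for r), which did not pass. Cps1 went with Tat (r = 0.69, rho = 0.74, adjusted permutation p = 0.0084) and with Otc (r = 0.67, rho = 0.67, adjusted permutation p = 0.014). Against all 16543 other genes the median r of each member lay between -0.067 (Tat) and 0.063 (Gpt), and 3.29% (Got1) to 16.0% (Gpt) of them had r of 0.5 or more. In the brightest decile of genes, which holds 8 of the 10 members, the median r was 0.35 for Ass1, 0.33 for Gpt, 0.31 for Asl and -0.28 for Tat. There 25.8% of genes had r of 0.5 or more with Ass1, 22.4% with Asl and 32.5% with Gpt. Asl's median r with the other members, 0.30, was no higher than with those bright genes, and Gpt's, 0.23, was lower.

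**Figure D4:**
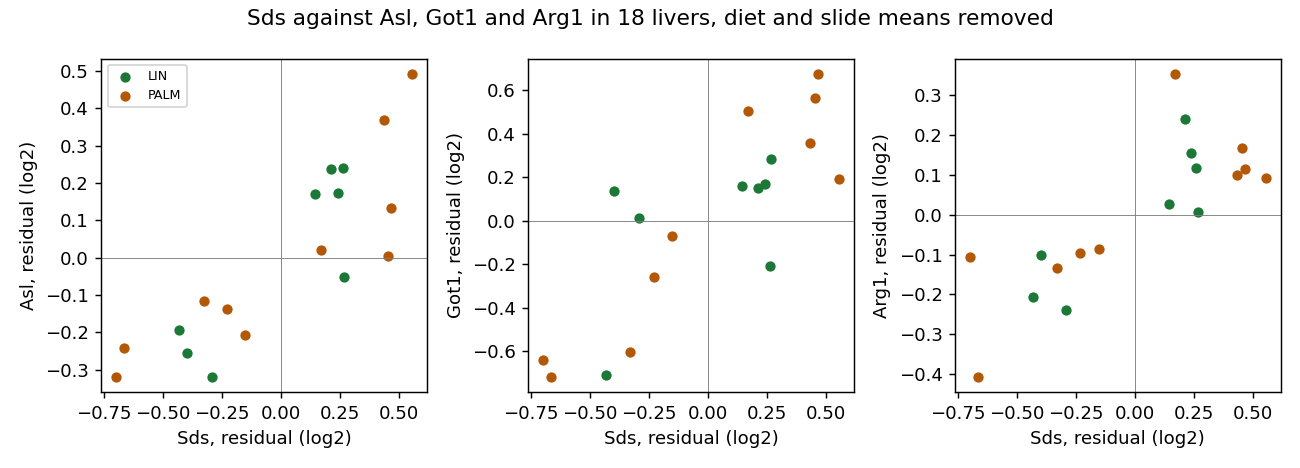
Residual level of Sds (horizontal, log2) against those of Asl, Got1 and Arg1 (vertical, log2) in 18 livers after diet and slide means were removed; green points are LIN livers and brown points PALM livers. Points of both diets run from lower left to upper right in all 3 panels.

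With slide means left in, r of Sds was 0.83 with Asl, 0.73 with Got1 and 0.81 with Arg1. With marked spots left out, it was 0.75, 0.50 and 0.83. These last values rest on fewer livers, because a liver with a marked spot of either gene drops out of the pair. Asl kept values in 5 LIN and 5 PALM livers, Got1 in 5 and 6, Arg1 in 7 and 8, and Sds in 7 and 9. They are therefore not a check over all livers.

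The mean level of the 10 genes in a liver did not separate the diets. It was 5.08, 5.54 and 5.76 (lowest, median and highest) in LIN livers, against 5.18, 5.43 and 5.85 in PALM livers. As a description, because the members were chosen with results known, the residual of this mean had r = 0.07 (rho = 0.07) with the array's 75th percentile, r = -0.02 (rho = 0.12) with the number of probes above background and r = -0.10 (rho = -0.11) with the number of marked spots over the 18 livers. Its r was -0.07 (rho = -0.14) with the mean of the hepatocyte markers and -0.07 (rho = 0.05) with that of the Kupffer cell markers. Over lists of genes, r was 0.52 (rho = 0.58) with 11 glucocorticoid and fasting genes, 0.45 (rho = 0.36) with the periportal genes, 0.32 (rho = 0.24) with the other amino acid genes, -0.32 (rho = -0.36) with the pericentral genes and -0.08 (rho = -0.0031) with the PPARalpha targets. The largest of these 10 values, 0.52, had a permutation p of 0.262 for r, adjusted over the 10, and did not pass. It was 0.40 without the 2 livers farthest from the median residual of the glucocorticoid and fasting genes.

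Other genes of amino acid breakdown were read from 9 further lists with 89 genes in all. With marked spots left out, 64 could be tested and 0 passed limma's test; 2 had an unadjusted p under 0.05 (3.12%, against 10.2% of all genes). Their median difference was 0.057 on the log2 scale, and 44 of the 64 were above 0, against 48.7% of all genes. With marked spots kept, 84 were tested, 0 passed and 6 had an unadjusted p under 0.05 (7.14%, against 10.6% of all genes). Of the other urea cycle and nitrogen entry genes, such as carriers of the mitochondrial membrane, 5 of 9 were tested and 0 passed; Got2, the mitochondrial aspartate aminotransferase, which is also among the 8 tested other aminotransferases (0 passed), differed by 0.16 ± 0.091 (SE; adjusted p = 0.599), and by 0.088 with the percentile taken over unmarked spots and 0.10 without LIN replicate 3.

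Among 7 tested genes of glutamine and glutamate handling 0 passed, and Rhbg, an ammonium transporter of hepatocytes around the central vein, came closest. Its level was -0.13, 0.24 and 0.58 in LIN livers, against 0.26, 0.74 and 1.22 in PALM livers. The groups overlapped between 0.26 and 0.58, and the difference of -0.54 ± 0.14 (SE) had an adjusted p of 0.0873 by limma. Without PALM replicate 8 the adjusted p was 0.0448, and 0.0402 with marked spots kept as well. For most of the other lists the gene with the smallest p is given, none of which passed. Of the tyrosine and phenylalanine list 4 genes were tested and 0 passed. Afmid of tryptophan breakdown differed by 0.19 ± 0.095 (SE; 7 tested), and Uroc1, urocanase of histidine breakdown, by 0.13 ± 0.10 (3 tested).

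Amt, a subunit of the glycine cleavage system, differed by 0.45 ± 0.17 (SE; adjusted p = 0.316 by limma; 10 genes of the serine, glycine and threonine list tested). It differed by 0.099 with normexp background correction and by 0.21 in a fit to the authors' deposited table. Its level was -2.40, -2.11 and -1.65 in LIN livers, against -3.42, -2.36 and -2.07 in PALM livers, and the groups overlapped. Aldh6a1 of valine breakdown differed by 0.21 ± 0.13 (16 branched-chain genes tested) and Gcdh of lysine breakdown by 0.17 ± 0.098 (5 tested). A brighter Aldh6a1 probe, usable with marked spots kept, differed by 0.17 ± 0.066 (unadjusted p = 0.0179 and adjusted p = 0.332 by limma). Of 9 tested amino acid transporters 0 passed; Slc43a1, a carrier of large neutral amino acids, differed by -0.62 ± 0.18 (adjusted p = 0.152 by limma), and by -0.38 with normexp background correction. Of 12 tested regulators of these pathways 0 passed, and Ppara itself differed by 0.29 ± 0.085 (adjusted p = 0.165 by limma). Another Ppara probe, usable with marked spots kept, differed by 0.15 (adjusted p = 0.455 by limma), and by 0.12 in a fit to the authors' deposited table. Of 9 tested glucocorticoid and fasting genes 0 passed, with Irs2, an adaptor of insulin signalling, at 0.19 ± 0.19 (0.12 in a fit to the authors' deposited table).

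**Figure D5:**
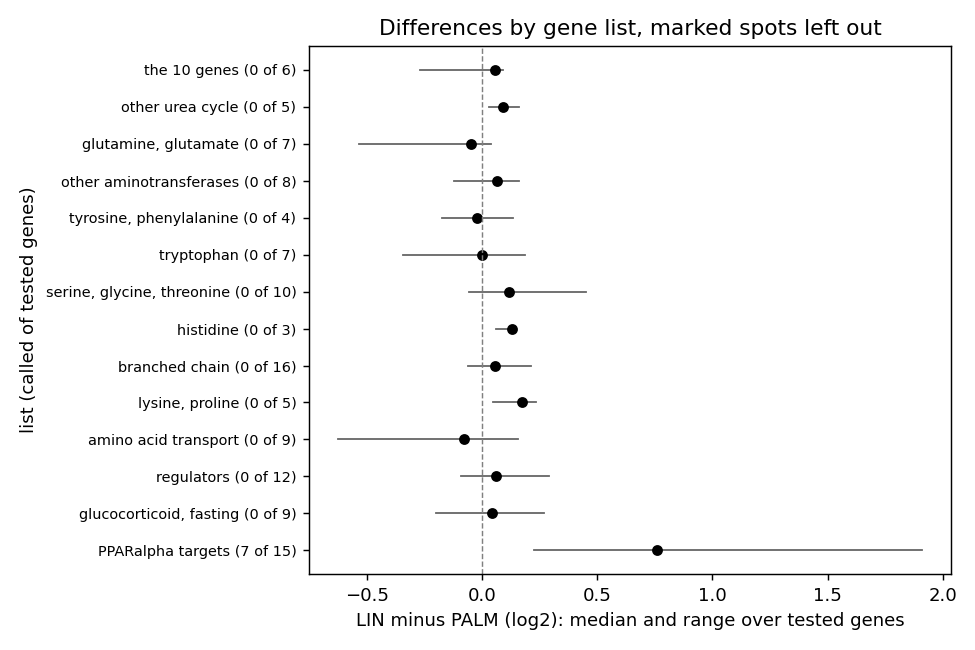
For each gene list, the point is the median and the line the range of the differences (LIN minus PALM, log2) over its tested genes with marked spots left out; the label gives the genes called and tested. The lists of amino acid genes lie around 0 with 0 called, and 7 of 15 PPARalpha targets are called, all above 0.

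Targets of PPARalpha, in contrast, were higher in the same LIN livers: 7 of 15 tested rose and 0 fell, with a median difference of 0.76, against 0.57% of all genes that rose and 0.188% that fell. Cyp4a10, a fatty acid hydroxylase, rose by 1.59 ± 0.23 (SE; adjusted p = 0.00217 by limma), and Acaa1b, a peroxisomal thiolase, by 0.76 ± 0.12 (adjusted p = 0.00438 by limma). Acot2, a mitochondrial acyl-CoA thioesterase, rose by 1.17 ± 0.17 (adjusted p = 0.00186 by limma); with normexp background correction it differed by 0.15 and did not pass. Over 30 alternatives Cyp4a10 and Acaa1b each passed in 29. The list of PPARalpha targets was chosen with earlier results of these data known, so its share of called genes is a description. The difference between this list and the 10 amino acid genes was not tested.

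Since the urea cycle sits around the portal vein, genes of that zone and of the central zone were read too. Over all genes in the same comparison 0.57% rose and 0.188% fell. Of 9 tested periportal genes 1 rose and 1 fell. Hsd17b6, a steroid dehydrogenase, rose by 1.20 ± 0.26 (SE; adjusted p = 0.0375 by limma), and Cdh1, E-cadherin, fell by 0.50 ± 0.11 (adjusted p = 0.0356 by limma). Of 9 tested pericentral genes 0 rose and 1 fell, Cyp7a1 of bile acid synthesis, by 1.00 ± 0.22 (adjusted p = 0.0389 by limma). These calls were near the threshold: over 30 alternatives each kept its direction, and Hsd17b6 passed in 14, Cdh1 in 16 and Cyp7a1 in 18. Leaving out single livers gave adjusted p-values on both sides of the threshold for all 3.

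Cell type markers had 0 called genes by limma in each of 11 lists, and 3 of 52 tested had an unadjusted p under 0.05 (5.77%, against 10.2% of all genes). These were Apob of hepatocytes (0.41 ± 0.16, adjusted p = 0.381), Cela2a of the exocrine pancreas (-1.29 ± 0.49, adjusted p = 0.338) and Cfd of adipocytes. Another Apob probe, usable with marked spots kept, differed by 0.23 (adjusted p = 0.527 by limma), and by 0.17 in a fit to the authors' deposited table. Cela2a differed by -0.35 with normexp background correction. Summed marker levels on the linear scale, relative to the array's percentile, were 3024 to 5326 in LIN livers and 3169 to 5124 in PALM livers for the 10 hepatocyte markers, 55.0 to 133 in LIN livers and 52.9 to 110 in PALM livers for the 8 Kupffer cell markers, and 42.5 to 56.7 in LIN livers and 31.8 to 58.7 in PALM livers for the 7 endothelial markers. The 8 stellate cell markers summed to 48.6 to 75.9 in LIN livers and 43.0 to 68.0 in PALM livers. Such sums weigh the brightest markers most. Marker by marker, with marked spots left out, 9 of 10 hepatocyte differences were above 0 (median 0.15), against 48.7% of all genes. Above 0 were also 1 of 8 for Kupffer cells (median -0.15), 2 of 7 for stellate cells (-0.17) and 4 of 7 for endothelium (0.017). For bile ducts it was 0 of 4, for lymphocytes 0 of 3, for neutrophils 1 of 4, for red cells 0 of 2, for pancreas 0 of 4 and for kidney 2 of 2. In a fit to the authors' deposited table, 7 of 10 hepatocyte differences were above 0, with a median of 3.4e-05. There it was 1 of 7 for Kupffer cells (median -0.098). Of the markers of bile ducts 4 of 6 were detected, of lymphocytes 3 of 7, of neutrophils 4 of 6 and of red cells 3 of the 5 on the array. Of 6 adipocyte markers only Cfd was detected, with a difference of 2.54 ± 0.88 (SE; adjusted p = 0.279 by limma), with Adipoq, Lep, Plin1, Retn and Nnat not detected. Of pancreatic markers 4 of 6 and of kidney markers 2 of 6 were detected, with Umod, Slc12a1 and Kap among those not detected.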

How the data were processed

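Total RNA from 18 livers was labelled with Cy3 and hybridised to 1-colour Agilent arrays, per the labels' protocols. The intensity values are the processed signals of Agilent Feature Extraction 9.5.3.1, per the file headers; limma (no version) and Feature Extraction 9.5 stand in the submitters' processing notes. The authors also deposited a table of log2 values of 18060 probes (14807 genes); its scaling and filter are unstated in the labels, so it was an alternative only. Groups came from the sample titles, and slides from the names of the deposited arrays. On each array the 75th percentile of non-control signals was set to 0 on the log2 scale. Spots that the software marked (uneven, or population outliers) were dropped after scaling, or kept in a second fit, before replicate spots were averaged. The brightest probe that cleared background on 8 or more arrays, with 6 or more values per group, represented its gene. Names were updated through RefSeq (GRCm38.p6): an accession named 26055 probes, a symbol 3195 and a synonym 930, while 9249 stayed as deposited. The test was limma 3.58.1 under R 4.3.3, with lmFit and eBayes (no covariates, two-sided, Benjamini-Hochberg adjusted p under 0.05 over all genes, LIN minus PALM). The fit was also run on simulated data. These were drawn gene by gene without slide effects, so they cannot show how the fit behaves with such effects. The number of arrays limits the precision. The text names all 10 members and, of each other list, the called genes with the smallest adjusted p (at most 3) or else the gene with the smallest p; of cell type markers it names those with an unadjusted p under 0.05 and some that were not detected; some genes that this rule names are not reported here. The members and lists were chosen with earlier results of these data known. Nothing in the labels ties a replicate number in one group to the same number in the other. Alternatives covered background correction, scaling, filters, probe choice, slide and replicate blocks, and leaving out each array.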

Additional observations from a re-analysis of the deposited data

Results flagged for a closer look

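Tat in PALM replicate 8 had a level of 7.229, against 6.106 in the next PALM liver, a gap wide for the range of its group of 10. Its spot was marked by the array software, so the value is absent when marked spots are left out. Of 24 groups of livers (12 probes in 2 diets) it was the 1 group with such a value, and chance marks about 1 in 20 groups.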

How the results depend on the processing

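Over 57 alternatives 0 members were called (lowest adjusted p = 0.351, for Otc), and the members' median difference ran from -0.013 to 0.119. The other amino acid genes had 1 call, Rhbg, without PALM replicate 8, both with marked spots left out and with them kept, and 0 in the other alternatives; leaving out 1 array at a time gave 0 to 1. The number of pairs with r of 0.5 or more ran from 15 to 27 over 28 alternatives, against 20.

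Differences close to 0 changed sign. Leaving out 1 array gave -0.014 to 0.061 for Otc and -0.0066 to 0.20 for Sds with marked spots left out. With marked spots kept it gave -0.026 to 0.095 for Asl, -0.070 to 0.035 for Gls2, -0.019 to 0.165 for Got1 and -0.0013 to 0.27 for Tat. With marked spots kept, leaving out 1 array gave -0.38 to -0.19 for Cps1, -0.17 to -0.10 for Otc, -0.13 to -0.011 for Ass1, 0.016 to 0.118 for Arg1, 0.020 to 0.102 for Gpt and 0.0018 to 0.20 for Sds. Leaving out 1 array also took Uroc1 to 0.068 (LIN replicate 3), Aldh6a1 to 0.138 (LIN replicate 1), Gcdh to 0.11 (PALM replicate 5) and Irs2 to between 0.094 and 0.307 (LIN replicates 3 and 8). Otc was at -0.0074 with the percentile taken over unmarked spots and Asl at -0.024 in the authors' table; the cause was not tested.

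With the replicate number as a block, 0 members were called, the median difference was 0.039 and Cps1 was at -0.37 (unadjusted p = 0.0178 and adjusted p = 0.389 by limma); over all genes 18 were called, against 121. Same-numbered livers correlated at -0.22 to 0.47, with 5 of 8 over 0.1, and 2 of 8 livers correlated best with their own number, so the numbers were not taken as pairs. Of these pairs 6 shared a slide. Over all genes 68 were called with normexp, 42 with the percentile over unmarked spots, 44 with no filter on dim probes and 200 with slide as a random block.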
